A study of Mus musculus with 6 samples.

Results

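Stromal cells are recognised and isolated by proteins on their surface, and 10 genes that encode such proteins are described here: Ly6a (Sca-1), Ly6c1, Cd34, Thy1 (CD90), Cd9, Pdpn (podoplanin, gp38), Nt5e (CD73), Eng (endoglin, CD105), Vcam1 (CD106) and Icam1 (CD54). They were taken by symbol from a count table of 52997 gene symbols, and all 10 were found and passed the filter for testing. RNA was sequenced from mesenchymal stromal cells, the matrix-building support cells of connective tissue, from 8-week-old C57BL/6 mice without challenge. The cells came from hindlimb skeletal muscle, where they are also called fibro-adipogenic progenitors, or from lymph nodes combined over cervical, axillary, brachial and inguinal sites. Each of the 6 libraries, 3 per tissue, held 1000 cells sorted in a repeated pass. Not given in the sources used here are the sex of the mice and the antibodies of this sort, so it is not known which of the 10 proteins, if any, gated these cells. The submitters describe the libraries as biological replicates. The muscle samples are titled 2a, 2b and 3 and the columns are numbered 2, 3 and 4, so whether each muscle library came from its own mice is not known, and p-values measure the spread between these libraries.

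As background, the 10 proteins do different work. Ly6a, Ly6c1, Thy1 and Nt5e are held in the outer membrane leaflet by a glycolipid anchor. Sca-1 and CD34 mark fibro-adipogenic progenitors in muscle, whereas podoplanin is the usual marker of the reticular fibroblasts of lymph nodes, which it helps to contract and relax. CD34 is a heavily glycosylated sialomucin, and CD9 is a tetraspanin that organises membrane partners. CD73 turns extracellular AMP into adenosine, and endoglin is a co-receptor for ligands of the TGF-beta and BMP family. VCAM1 and ICAM1 are immunoglobulin-type adhesion molecules that hold leukocytes through their integrins, and inflammatory signals can raise both.

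The promoter windows of Icam1, Nt5e and Cd9 are shown because these 3 genes had the largest differences in level among the members with a window in the RefSeq table (GRCm38.p6), where 7 of the 10 genes were found. Ly6a, Thy1 and Vcam1 are named only. Each line holds the 250 bases before the RefSeq start, read in the direction of transcription, from chr9:21015690-21015939 (plus strand) for Icam1, chr9:88327359-88327608 (plus strand) for Nt5e and chr6:125494761-125495010 (minus strand) for Cd9. The GENCODE M21 annotation, used below for gene coordinates, has other starts. It begins Nt5e at 88327197, so the whole Nt5e window lies inside that gene. Cd9 begins there at 125494791, so the last bases of its window also lie inside the gene. Capitals mark motif matches on either strand, which are descriptions of letters and not binding sites.
Icam1: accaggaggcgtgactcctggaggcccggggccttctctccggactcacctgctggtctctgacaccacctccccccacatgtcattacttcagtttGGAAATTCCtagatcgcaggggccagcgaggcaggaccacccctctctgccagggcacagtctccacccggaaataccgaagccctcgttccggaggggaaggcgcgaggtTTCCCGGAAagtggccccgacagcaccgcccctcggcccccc
Nt5e: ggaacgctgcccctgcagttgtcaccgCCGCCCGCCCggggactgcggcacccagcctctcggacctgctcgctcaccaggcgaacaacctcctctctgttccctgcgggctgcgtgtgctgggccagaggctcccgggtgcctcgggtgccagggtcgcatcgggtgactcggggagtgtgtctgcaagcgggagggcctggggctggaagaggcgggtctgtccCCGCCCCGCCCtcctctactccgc
Cd9: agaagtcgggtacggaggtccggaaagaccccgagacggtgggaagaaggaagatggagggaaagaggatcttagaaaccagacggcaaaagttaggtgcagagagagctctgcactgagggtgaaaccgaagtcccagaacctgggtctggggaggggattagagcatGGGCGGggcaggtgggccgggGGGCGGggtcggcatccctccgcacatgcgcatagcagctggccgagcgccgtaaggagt

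In Icam1 the capitals mark a match to GGAANTTCC, a form of the kappaB motif that NF-kappaB proteins recognise, 153 to 145 bases before the start. They also mark a match to TTCCNGGAA, a form of the gamma-activated motif that STAT proteins recognise, 42 to 34 bases before it. Of 32851 RefSeq windows, 0.813% held the first motif and 0.913% the second. Icam1 was the only 1 of the 7 genes with a window to hold either. In Nt5e and Cd9 the capitals mark GC boxes (GGGCGG or its complement CCGCCC, found in 32.7% of windows), 4 in Nt5e, where neighbouring matches share bases, and 2 in Cd9. Icam1 also held a GC box, left in lower case. The AP-1 motif TGANTCA, found in 6.75% of all windows, was in none of the members' windows, and TATAAA, in 12.4%, was in that of Ly6c1. These motifs were chosen after the windows had been read.

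Levels are given as CPM, the counts scaled to library size with the TMM method over the 10823 tested genes. The muscle libraries 2, 3 and 4 held 1844874, 1256276 and 415460 counts in total, and the lymph node libraries 1851940 to 2397134. Muscle library 4 stood apart: across genes its log2 CPM correlated with those of muscle libraries 2 and 3 at r = 0.705 and 0.702, whereas those 2 correlated at 0.952 and lymph node pairs at 0.952 to 0.969. It also held RNA of blood cells. The leukocyte marker Ptprc (CD45) measured 589 CPM there and 4.57 to 9.22 CPM in the other 5 libraries. The 5 pan-leukocyte markers summed to 1443 CPM against 10.5 to 28.4, and the 10 B cell markers to 2409 CPM against 18.8 to 265. The 265 CPM was that of lymph node library 3, where Ighm measured 141 CPM and Igkc 100 CPM, and the remaining libraries had at most 51.5 CPM. Because of these traits of muscle library 4, each of the 10 genes is given with and without it. All 10 fibroblast markers were detected in all 6 libraries, with the proteoglycan gene Dcn at 10430 to 14815 CPM and Pdgfra at 651 to 1494 CPM. The endothelial markers Cdh5 (at most 1.54 CPM) and Pecam1 (at most 3.84 CPM outside muscle library 4, 59.1 CPM in it) were near 0, as was the satellite cell marker Pax7 (at most 1.54 CPM). Of the 12 endothelial markers Tek stood out, at 121 to 366 CPM in all 6 libraries. The other 11 summed to 75.3 CPM in muscle library 4, most of it Pecam1, and 10.8 to 19.98 CPM elsewhere.

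**Figure D1:**
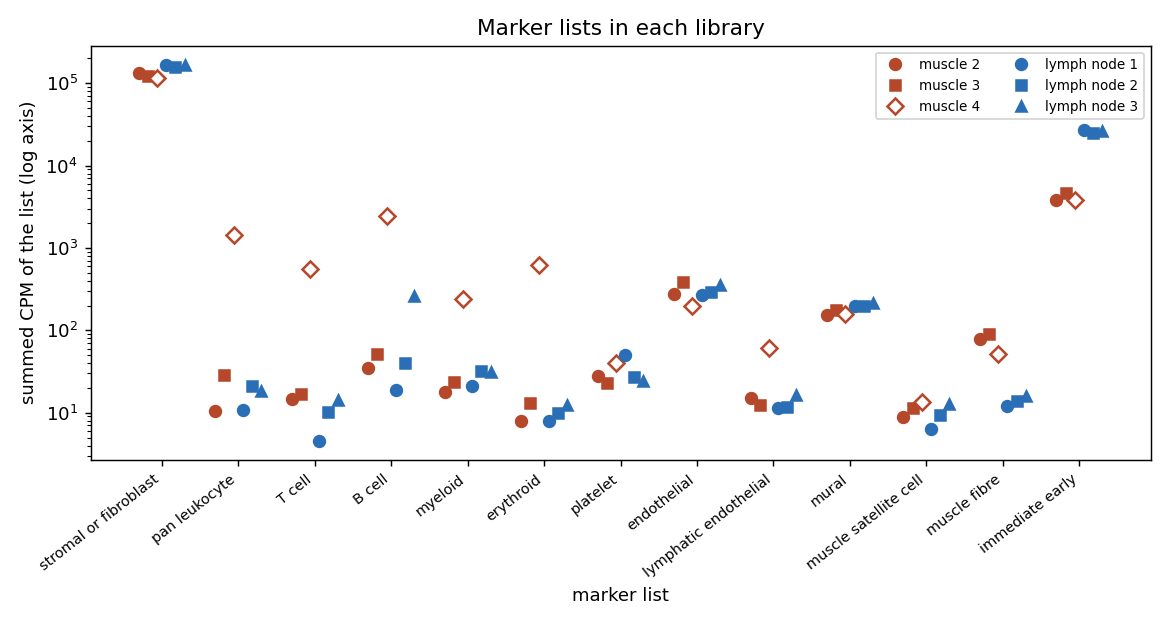
Summed CPM (log axis) of marker lists for stromal cells, other cell types and immediate early genes, with 1 symbol per library. Muscle library 4 (open diamond) lies above the other 5 libraries for the leukocyte, T cell, B cell, myeloid, erythroid and lymphatic endothelial lists. By a small margin it is also highest for the muscle satellite cell list. The immediate early list lies at 3801 to 4582 CPM in muscle and 24589 to 26680 CPM in lymph node.

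Of the 10 genes, Cd9 was higher in muscle stromal cells and Icam1 and Vcam1 were higher in lymph node stromal cells, each by about 3-fold to 4-fold. Nt5e was lower in muscle by a similar fold but varied widely between muscle libraries, did not pass the test with all 6 libraries and passed it when library 4 was left out. The other 6 (Ly6a, Ly6c1, Cd34, Thy1, Pdpn and Eng) did not pass the test. Thus 3 of 10 members were called (3 by DESeq2 and 4 by limma-voom), 1 higher and 2 lower in muscle, at an adjusted p of 0.05 (two-sided quasi-likelihood F test of edgeR, with Benjamini-Hochberg adjustment over all tested genes). Over all tested genes 4.32% were called, 1.46% higher and 2.86% lower. Every log2 fold change is that of muscle over lymph node, and the median was -0.19 over the members and 0.02 over all tested genes. The libraries of the tissues did not overlap for 5 members, Ly6a, Thy1, Cd9, Vcam1 and Icam1, against 23.6% of all tested genes. When muscle library 4 was left out, 4 members were called, 1 higher and 3 lower, where 12.4% of all tested genes were called (4.79% higher and 7.58% lower), and the members' median was -0.05. Then 7 members did not overlap, against 39.7% of tested genes.

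**Figure D2:**
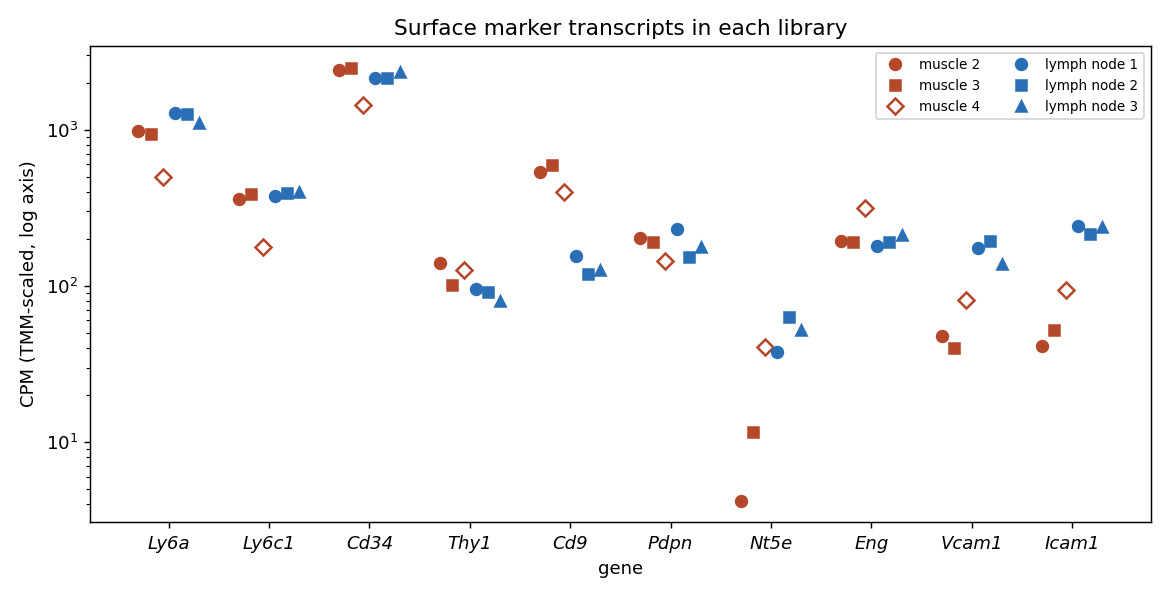
CPM (log axis) of the 10 genes, with 1 symbol per library, red for muscle and blue for lymph node. Cd9 lies at 401 to 594 CPM in muscle above 119 to 154 CPM in lymph node, Icam1 and Vcam1 lie the other way, and Nt5e spreads from 4.22 to 40.3 CPM within muscle.

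Cd9 (chromosome 6, 125460266 to 125494791, minus strand, GRCm38) measured 533, 594 and 401 CPM in muscle libraries 2, 3 and 4 and 154, 119 and 127 CPM in lymph node libraries 1, 2 and 3. Every muscle library was above every lymph node library, and muscle library 4 was the lowest of its tissue. The mean of the muscle libraries was 509 ± 98.9 CPM and that of the lymph node libraries 133 ± 18.4 CPM (SD, n = 3 each). This is a 3.84-fold higher level in muscle, with a 95% interval from 2.76 to 5.34 (log2 fold change 1.94 ± 0.21, SE, edgeR adjusted p = 0.00116). Left with 2 muscle libraries, those numbered 2 and 3, the log2 fold change was 2.07 ± 0.15 (edgeR adjusted p = 4e-07). Cd9 was called in all 19 alternative settings, with an adjusted p of at most 0.025. Of its 25-base words 23.9% also occur in transcripts of other genes, mainly the antisense gene Gm26728 (9.62%) and the pseudogene Cd9-ps (6.35%), and Gm26728 had at most 5 counts in any library. In a bulk library, fewer cells that carry a transcript and less of it per cell cannot be told apart, here and in every result that follows.

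Of 18 tested tetraspanin genes, Cd9 was the only 1 called, so 1 rose, 0 fell and 17 did not pass the test (median log2 fold change -0.11). Of those 17, 3 were lower at an unadjusted p under 0.05 by edgeR, and 1 was called lower by DESeq2 and 0 by limma-voom. Over all tested genes 4.32% were called (1.46% higher and 2.86% lower), the background for this list and those that follow. A single call in 18 genes is near that share and does not set the family apart. Cd81, the close relative that shares partners with CD9, measured 1310, 1334 and 788 CPM in muscle and 1213, 1204 and 1172 CPM in lymph node, and its log2 fold change was -0.06 (adjusted p = 0.944), and 0.14 (adjusted p = 0.579) without muscle library 4. Cd63, a tetraspanin of late endosomes, measured 210 to 290 CPM in muscle and 344 to 450 CPM in lymph node. The tissues did not overlap, and it was called only without muscle library 4 among the single-library omissions (-0.58, adjusted p = 0.0233, against -0.67 and 0.106 with it). Without that library Tspan7 (-1.68) and Tspan18 (-0.69) also fell.

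Among 7 tested genes for partners of CD9, 1 rose, 1 fell and 5 did not pass the test (median -0.11). Ptgfrn, an immunoglobulin protein that binds CD9 and CD81 directly, measured 113, 96.1 and 91.4 CPM in muscle and 49.1, 56.3 and 47.3 CPM in lymph node. It rose in muscle by 0.99 ± 0.20 on the log2 scale (adjusted p = 0.0252), with no overlap between tissues. Of the 6 omissions of 1 library, only that of muscle library 4 kept the call (1.04), and in the other 5 the largest adjusted p was 0.194. Cd36, a fatty acid uptake receptor found in complexes with CD9, went the other way, with 2.64, 1.54 and 2.69 CPM in muscle and 118, 101 and 94.7 CPM in lymph node (-5.50 ± 0.32, adjusted p = 7.2e-05). Those muscle levels rest on 8 counts in all, and without muscle library 4 the value was -5.54. Igsf8, the other immunoglobulin partner, and the integrin chain Itgb1 did not pass the test (log2 fold changes of -0.66 and -0.11).

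Icam1 (chromosome 9, 21015985 to 21028817, plus strand) measured 41.1, 52.3 and 94.1 CPM in muscle libraries 2, 3 and 4. In lymph node libraries 1, 2 and 3 it measured 240.4, 214 and 239 CPM. The tissues did not overlap, and muscle library 4 came nearest to the lymph node values. The means were 62.5 ± 27.9 CPM and 231 ± 15.3 CPM (SD, n = 3 each), which is 3.96-fold higher in lymph node (log2 fold change -1.99 ± 0.29, 95% interval -2.64 to -1.33, edgeR adjusted p = 0.00507). It was -2.33 ± 0.17 (adjusted p = 5.3e-07) without muscle library 4. Icam1 was called in all 19 alternative settings, with an adjusted p of at most 0.0416. An antisense gene, Gm47079, overlaps 511 of its exon bases, and reads of the 2 strands cannot be told apart here because strand use is not stated.

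Vcam1 (chromosome 3, 116109949 to 116129688, minus strand) measured 47.5, 40.0 and 80.6 CPM in muscle libraries 2, 3 and 4. In lymph node it measured 176, 194 and 137 CPM. Again every lymph node library was above every muscle library, and muscle library 4 was the highest muscle library. The means were 56.0 ± 21.6 CPM and 169 ± 28.7 CPM (SD, n = 3 each), 3.20-fold higher in lymph node (-1.68 ± 0.28, 95% interval -2.31 to -1.04, edgeR adjusted p = 0.01). It was -1.95 ± 0.20 (adjusted p = 9.2e-06) without muscle library 4. The call of Vcam1 was lost without muscle library 2 (adjusted p = 0.0624) or 3 (0.0569), without lymph node library 1 (0.0623) or 2 (0.0807), and with muscle libraries 2 and 3 summed into 1 (0.0569).

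Leukocyte RNA was higher in muscle library 4 than in the other muscle libraries, as were Icam1 and Vcam1, and its part in those 2 values was not tested. The differences between tissues were as large or larger without that library. The 25 immediate early genes, which respond fast to stress or tissue dissociation, also separated the tissues: their summed level was 3834, 4582 and 3801 CPM in muscle and 26680, 24589 and 26335 CPM in lymph node, and 20 of the 25 were called lower in muscle and 0 higher (0 higher also at an unadjusted p under 0.05 and by DESeq2 and limma-voom). Its part in the differences of Icam1 and Vcam1 was not tested.

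Of 12 tested immunoglobulin-type adhesion molecules Icam1 and Vcam1 were the only ones called, so 0 rose, 2 fell and 10 did not pass the test (median 0.02). Of the 10, 2 were higher in muscle at an unadjusted p under 0.05 by edgeR, and DESeq2 and limma-voom called 0 higher. Without muscle library 4 the neural adhesion molecule Ncam1 (1.64, adjusted p = 0.0204) and the junction protein Jam2 (0.62, adjusted p = 0.0373) rose in muscle. The vascular members Madcam1 and Icam2 were at most 0.859 and 13.4 CPM in any library and were not tested. Of the 8 listed integrin chains that form receptors for VCAM1 or ICAM1, 3 passed the filter, and Itga9, the alpha chain of a VCAM1 receptor, rose in muscle (55.9, 56.9 and 88.7 CPM against 22.8, 35.7 and 27.3 CPM, log2 fold change 1.16 ± 0.28, adjusted p = 0.0494). That call was kept in 11 of 19 settings, and of the 6 omissions of 1 library only in that of muscle library 4 (0.96). Itgal and Itgb2, the 2 chains of the leukocyte ICAM1 receptor LFA-1, were not tested. They measured 67.2 and 18.8 CPM in muscle library 4 and no more than 4.61 and 4.0 CPM elsewhere.

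Nt5e (chromosome 9, 88327197 to 88372092, plus strand) measured 4.22, 11.5 and 40.3 CPM in muscle libraries 2, 3 and 4 and 37.7, 63.2 and 51.9 CPM in lymph node libraries 1, 2 and 3. Muscle libraries 2 and 3 were below every lymph node library, and muscle library 4 fell within the lymph node range. The muscle values rest on 8, 15 and 15 counts. Their exact 95% Poisson intervals, which cover counting error only, were 1.82 to 8.31 CPM, 6.45 to 19.0 CPM and 22.6 to 66.5 CPM, and the interval of muscle library 4 did not overlap those of the other 2. The means were 18.7 ± 19.1 CPM and 50.9 ± 12.8 CPM (SD, n = 3 each), and the log2 fold change of -1.94 ± 0.61 (95% interval -3.32 to -0.56) did not pass the test (unadjusted p = 0.011, edgeR adjusted p = 0.141). Without muscle library 4 Nt5e fell by 2.80 ± 0.37 on the log2 scale, 6.97-fold lower in muscle (adjusted p = 1.3e-04). Without muscle library 2 the log2 fold change was -1.26 (adjusted p = 0.3), and Nt5e was called in 8 of 19 settings. Lymphocytes and some myeloid cells also carry CD73, and the higher Nt5e of muscle library 4 came with 559 CPM of 12 summed T cell markers against 4.57 to 16.9 CPM in the other 5 libraries. The part of those cells in the Nt5e value was not tested.

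Of 11 tested genes of extracellular nucleotide and adenosine handling, Nt5e included, 2 rose in muscle, 0 fell and 9 did not pass the test (median -0.14). By edgeR 1 of them, Nt5e, was lower at an unadjusted p under 0.05, and DESeq2 called 0 and limma-voom 1 lower. Enpp1, which cleaves ATP to AMP and pyrophosphate, measured 67.5, 69.2 and 56.4 CPM in muscle and 4.57, 5.16 and 6.83 CPM in lymph node (3.54 ± 0.29, adjusted p = 4.4e-04). It was called in all 19 settings, and was 3.59 without muscle library 4. Entpd1 (CD39), which degrades ATP and ADP to AMP and so supplies CD73, measured 75.4, 81.5 and 59.1 CPM against 17.7, 16.3 and 29.6 CPM (1.78 ± 0.29, adjusted p = 0.00801). Leaving out muscle library 2 or 3, or lymph node library 1 or 2, ended its call (largest adjusted p 0.0843), and leaving out muscle library 4 gave 1.87. For both, all muscle libraries were above all lymph node libraries. Entpd2, which turns ATP into ADP, measured 430 to 489 CPM in muscle and 497 to 515 CPM in lymph node, and its log2 fold change of -0.14 did not pass the test (adjusted p = 0.763). Dpp4 (CD26), a peptidase that also marks a class of fibroblasts, measured 426, 411 and 91.4 CPM in muscle and 634, 547 and 651 CPM in lymph node. It fell in muscle when library 4 was left out (-0.55, adjusted p = 0.0152) and did not pass the test with it (-0.95, adjusted p = 0.352). Of the adenosine receptors only Adora2b passed the filter, at 5.38 to 21.5 CPM in all libraries.

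**Figure D3:**
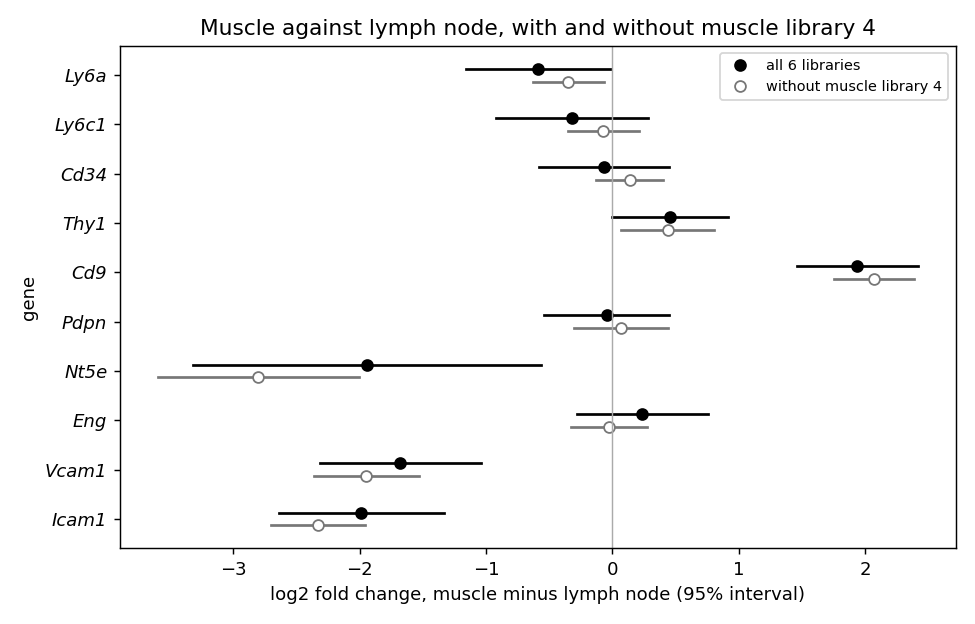
Log2 fold change, muscle minus lymph node, of the 10 genes with 95% intervals, from all 6 libraries (filled) and without muscle library 4 (open). Intervals are narrower without that library, and the interval of Nt5e runs from -3.32 to -0.56 with it and from -3.60 to -2.01 without it.

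Ly6a (chromosome 15, 74994877 to 74998031, minus strand), the Sca-1 antigen, measured 973, 941 and 495 CPM in muscle libraries 2, 3 and 4. It measured 1279, 1254 and 1101 CPM in lymph node. The tissues did not overlap, and muscle library 4 held about 0.517 times the mean of the other muscle libraries. The log2 fold change was -0.59 ± 0.26 (95% interval -1.16 to -0.01, unadjusted p = 0.047, edgeR adjusted p = 0.32), and -0.35 (adjusted p = 0.112) without muscle library 4. It was called in 0 of 19 settings. Its neighbour Ly6c1 (chromosome 15, 75044018 to 75048830, minus strand) measured 361, 386 and 177 CPM in muscle and 374, 395 and 402 CPM in lymph node. Muscle libraries 2 and 3 were near or within the lymph node range and muscle library 4 was below it (-0.32 ± 0.27, 95% interval -0.92 to 0.28, adjusted p = 0.666), and without that library the log2 fold change was -0.07 (adjusted p = 0.818). The 2 genes are uncertain as single genes, since 37.5% of the 25-base words of Ly6a and 52.1% of those of Ly6c1 occur in other genes, 23.7% of Ly6a's in Ly6c1 and 39.1% of Ly6c1's in Ly6c2. The table lists Ly6c2, a myeloid and T cell antigen, at no more than 10.8 CPM in any library. The ratio of Ly6a to Ly6c1 CPM was 2.69, 2.44 and 2.79 in muscle and 3.42, 3.18 and 2.74 in lymph node, which overlap.

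Of 5 tested genes of the LY6 and uPAR family, 0 rose and 0 fell (median -0.32). By edgeR 2 of them, Ly6a and Ly6e, were lower in muscle at an unadjusted p under 0.05, and DESeq2 and limma-voom called 0. Ly6e, a family member broadly induced by interferon, measured 198, 175 and 306 CPM in muscle and 359, 311 and 321 CPM in lymph node. It was called lower in muscle without muscle library 4 (-0.83, adjusted p = 0.0013), and with that library the log2 fold change was -0.57 (adjusted p = 0.276).

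Thy1 (chromosome 9, 44043384 to 44048579, plus strand), which binds integrins of the beta3 and other classes, measured 139, 101 and 126 CPM in muscle. It measured 95.4, 91.9 and 79.7 CPM in lymph node. Every muscle library was above every lymph node library, by a small margin, and muscle library 4 lay between the other 2. The means were 122 ± 19.2 CPM and 89.0 ± 8.25 CPM (SD, n = 3 each), and the log2 fold change of 0.46 ± 0.20 (95% interval -0.00193 to 0.92, edgeR adjusted p = 0.332) did not pass the test. It was 0.44 (adjusted p = 0.126) without muscle library 4. T cells also carry Thy1, and their 12 markers summed to 559 CPM in muscle library 4, 14.8 and 16.9 CPM in muscle libraries 2 and 3 and 4.57 to 14.1 CPM in lymph node. Their part in the Thy1 values was not tested. Of 6 tested integrin and syndecan partners of Thy-1, 0 were called with all libraries by edgeR, DESeq2 or limma-voom (median 0.22), and 0 had an edgeR unadjusted p under 0.05. In the absence of muscle library 4 the fibronectin receptor chain Itga5 (0.77, adjusted p = 0.0122) and the vitronectin receptor chain Itgb5 (0.75, adjusted p = 0.00735) rose in muscle.

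Cd34 (chromosome 1, 194938819 to 194961279, plus strand) had the highest counts of the 10 genes. It measured 2392, 2495 and 1438 CPM in muscle and 2152, 2129 and 2350.1 CPM in lymph node. Muscle libraries 2 and 3 were above all lymph node libraries and muscle library 4 was below all of them. The log2 fold change was -0.07 ± 0.23 (95% interval -0.58 to 0.45, edgeR adjusted p = 0.941) with all libraries and 0.14 (95% interval -0.13 to 0.40, adjusted p = 0.579) without muscle library 4, so the wider interval runs from 0.667 to 1.37 times the lymph node level. Of its sialomucin relatives Podxl2 measured 0 to 21.7 CPM and did not pass the test (-0.63), and Podxl was at most 2.69 CPM.

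Pdpn (chromosome 4, 143267431 to 143299564, minus strand) measured 202, 189.8 and 145 CPM in muscle and 230.1, 153 and 177 CPM in lymph node. The ranges overlapped, with muscle library 4 the lowest of the 6 and lymph node library 1 the highest. The means were 179 ± 29.9 CPM and 187 ± 39.5 CPM (SD, n = 3 each), and the log2 fold change was -0.04 ± 0.22 (95% interval -0.54 to 0.45, edgeR adjusted p = 0.961) and 0.07 without muscle library 4. Among 6 tested partner genes of podoplanin 2 rose in muscle, 0 fell and 4 did not pass the test (median 0.59). None was lower at an unadjusted p under 0.05 (0 by edgeR, DESeq2 and limma-voom alike). Those that rose were Cd9, given above, and Ezr, which encodes ezrin, a linker of podoplanin to the actin cytoskeleton, at 23.2, 29.2 and 64.5 CPM in muscle against 4.57, 8.16 and 5.46 CPM in lymph node (2.52 ± 0.48, adjusted p = 0.0177). Ezr was highest in muscle library 4 and leukocytes also express it. It was called without that library (2.06, adjusted p = 9.7e-04) and without muscle library 2, and the omission of any other 1 library ended the call (adjusted p up to 0.117). The more abundant linker Msn (moesin) measured 369 to 489 CPM in muscle and 288 to 351 CPM in lymph node (0.36, adjusted p = 0.424). Cd44, the hyaluronan receptor that associates with podoplanin, was called higher in muscle without muscle library 4 (0.65, adjusted p = 0.0241) and not with it (0.81, adjusted p = 0.101). The galectin gene Lgals8 was called lower without that library (-0.57, adjusted p = 0.0355) and not with it (-0.89, adjusted p = 0.366). Clec1b, the podoplanin receptor CLEC-2 of platelets and myeloid cells, measured 32.3 CPM in muscle library 4 and at most 4.22 CPM in the others. The lymphatic endothelial markers summed to 61.8 CPM in muscle library 4 and 11.4 to 16.4 CPM in the others. Most of the 61.8 CPM was Prox1 (29.6 CPM, 11 counts) and Lyve1 (24.2 CPM, 9 counts). The rest of that list was at most 5.38 CPM each in muscle library 4. The part of such cells in the Pdpn values was not tested.

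Eng (chromosome 2, 32646595 to 32682669, plus strand) measured 195, 189.8 and 315 CPM in muscle and 179, 192 and 213 CPM in lymph node. Muscle libraries 2 and 3 were within the lymph node range and muscle library 4 was above it, at 1.64 times the mean of the other muscle libraries. Endothelial cells carry much endoglin, and in muscle library 4 Pecam1 was at 59.1 CPM while Cdh5 was at 0. The 12 endothelial markers summed to 196 CPM there against 271 to 386 CPM in the other libraries, but most of that sum was Tek. The sum of the 11 others was highest in muscle library 4, as given above. Of those 75.3 CPM Pecam1 made up 59.1 CPM, and no other of the 11 was above 5.38 CPM there. The part of other cells in that Eng value was not tested. The log2 fold change was 0.24 ± 0.23 (95% interval -0.28 to 0.76, edgeR adjusted p = 0.719) with all libraries and -0.02 (95% interval -0.33 to 0.28, adjusted p = 0.951) without muscle library 4. Of 19 tested genes of the receptor complex and its signal carriers 1 rose, 0 fell and 18 did not pass the test (median 0.03). Over all tested genes 4.32% were called. By edgeR 2 of the 19 were lower at an unadjusted p under 0.05, and DESeq2 and limma-voom called 0 lower. The type I receptor Tgfbr1 measured 83.3, 101 and 48.4 CPM in muscle and 34.3, 32.6 and 38.2 CPM in lymph node (1.20 ± 0.27, adjusted p = 0.0386), a call that, of the 6 omissions of 1 library, only that of muscle library 4 kept (largest adjusted p 0.275). Tgfbr2, the type II receptor, overlapped between tissues at 446 to 924 CPM and 774 to 1149 CPM, and so did Acvrl1 (ALK1), the BMP receptor that endoglin assists, at 131 to 153 CPM and 102 to 161 CPM. Tgfbr3 (betaglycan), the co-receptor most like endoglin, measured 347 to 576 CPM in muscle and 713 to 768 CPM in lymph node without overlap, and did not pass the test (-0.57, adjusted p = 0.237, and -0.39, adjusted p = 0.063, without muscle library 4).

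**Figure D4:**
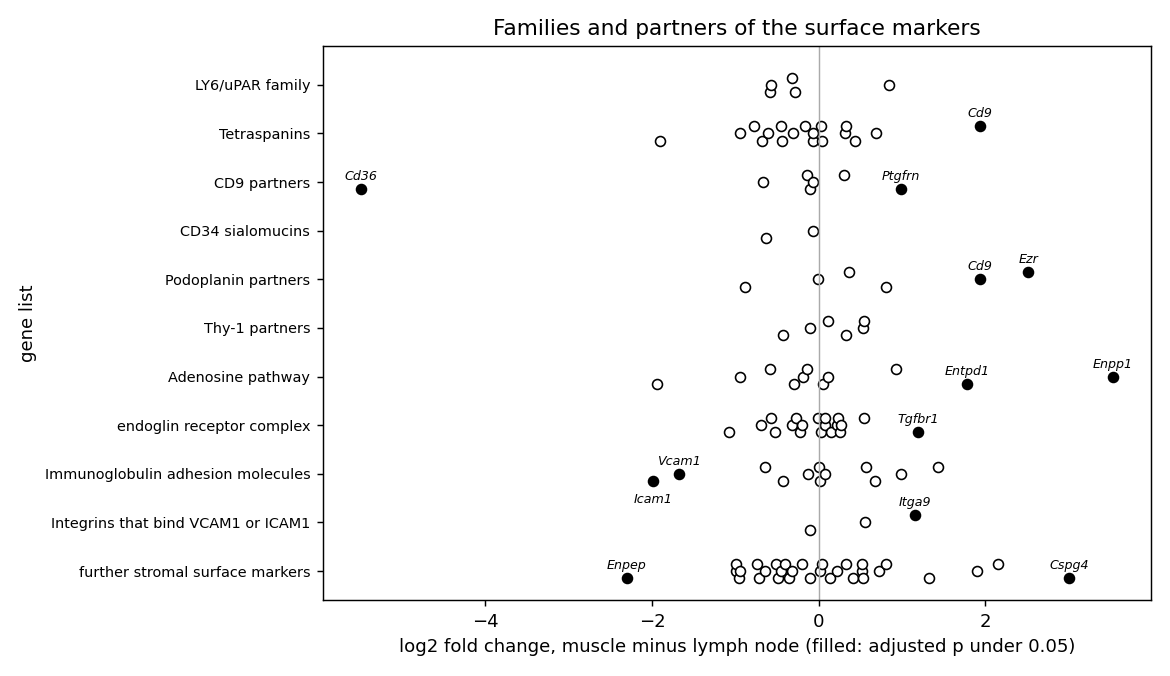
Log2 fold change, muscle minus lymph node, of the tested genes in 11 lists of relatives and partners of the 10 genes, with filled symbols for an edgeR adjusted p under 0.05. Most genes lie between -1 and 1, and the called genes are named.

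Levels of different genes were compared per 1000 bases of merged exon (GENCODE M21). In each of the 3 muscle libraries the order from highest to lowest was Ly6a, Cd34, Cd9, Ly6c1, Pdpn, Eng, Thy1, Icam1, Vcam1 and Nt5e. In each lymph node library it was Ly6a, Cd34, Ly6c1, Pdpn, Cd9, Icam1, Eng, Thy1, Vcam1 and Nt5e. Cd9 thus stood 2 places higher in muscle and Icam1 2 places higher in lymph node. Ly6a led at 666 ± 222 CPM per 1000 bases in muscle and 1005 ± 79.7 in lymph node, and Cd34 followed at 289 ± 79.9 and 303 ± 16.7. Nt5e was last at 2.17 ± 2.22 and 5.92 ± 1.48 (SD, n = 3 each). In muscle the library ranges of the neighbours Cd34 and Cd9, Cd9 and Ly6c1, Ly6c1 and Pdpn, and Vcam1 and Nt5e overlapped, and in lymph node only those of Icam1 and Eng did. With the longest transcript as the length, Ly6a and Cd34 stayed on top and Vcam1 and Nt5e at the bottom, whereas places in between shifted.

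**Figure D5:**
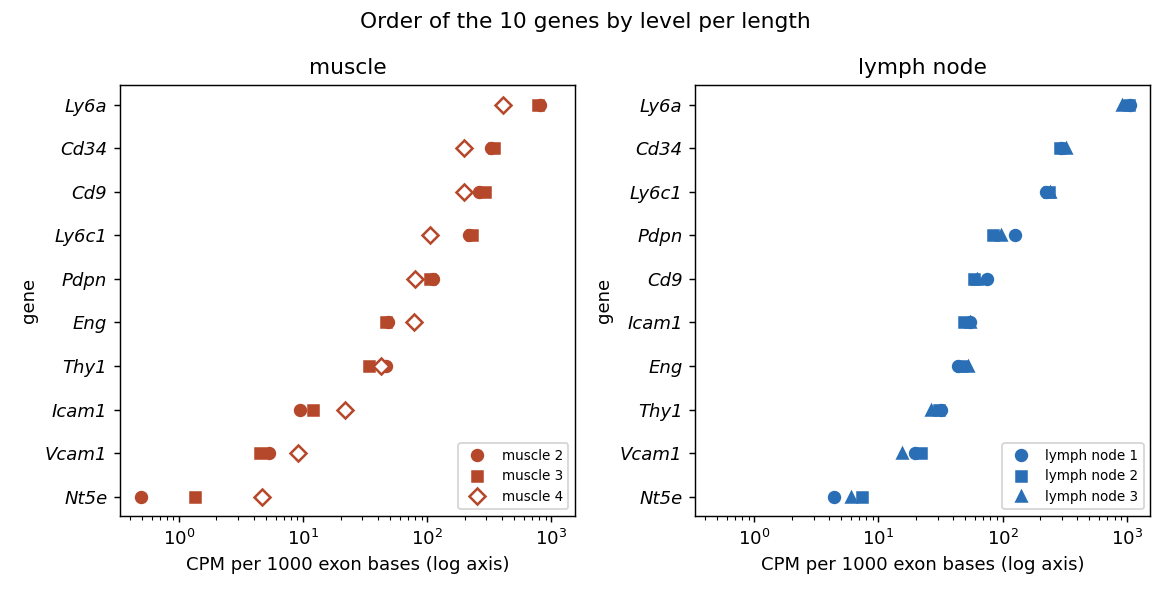
CPM per 1000 merged exon bases (log axis) of the 10 genes, ordered from highest to lowest in muscle (left) and lymph node (right), with 1 symbol per library. Ly6a is at the top and Nt5e at the bottom in both tissues, and Cd9 moves from the third place in muscle to the fifth in lymph node.

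The share of each gene in the summed per-length level of the 10 was also taken within each library. These shares did not overlap between tissues for 5 of the 10, Ly6a, Thy1, Cd9, Vcam1 and Icam1. They are the same 5 genes as by CPM, where 23.6% of all tested genes did not overlap. The shares are made from the same values and are not a second result. Ly6a held 35.9% to 44.1% of the summed per-length level in muscle and 51.0% to 55.7% in lymph node. Cd9 held 14.2% to 17.1% and 3.13% to 3.89%, and Thy1 1.83% to 3.69% and 1.49% to 1.64%. Icam1 held 0.515% to 1.89% in muscle and 2.62% to 3.07% in lymph node, and Vcam1 0.244% to 0.794% and 0.866% to 1.17%. The ratio of Cd9 to Icam1 CPM within a library, which no scaling of libraries can change, was 12.9, 11.4 and 4.26 in muscle and 0.641, 0.559 and 0.529 in lymph node. The ratio of Icam1 to Vcam1 per length was 1.76, 2.66 and 2.37 in muscle and 2.78, 2.24 and 3.54 in lymph node, which overlap. Summed over the 10 genes the level was 4887, 5001 and 3312 CPM in muscle and 4917, 4804 and 4878 CPM in lymph node, so muscle library 4 was the lowest and the other 5 lay between 4804 and 5001 CPM.

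Among 31 tested further surface markers of fibroblasts and stromal cells, 1 rose in muscle, 1 fell and 29 did not pass the test (median -0.11). Without muscle library 4, 6 rose and 4 fell. Over all tested genes 4.32% were called with all libraries and 12.4% without muscle library 4. Cspg4 (NG2), a proteoglycan also known from pericytes, measured 73.3, 81.5 and 69.9 CPM in muscle and 6.85, 9.45 and 11.4 CPM in lymph node (3.01 ± 0.27, adjusted p = 4.9e-04). The 9 mural cell markers, which include Cspg4, summed to 156 to 176 CPM in muscle and 195 to 216 CPM in lymph node. That order was set by Abcc9, which was called lower in muscle (17.4 to 37.6 CPM against 122 to 169 CPM). The other 8, Cspg4 among them, summed to 118 to 152 CPM in muscle and 46.4 to 77.1 CPM in lymph node. Cspg4 itself was the largest part of that muscle sum, at 69.9 to 81.5 CPM. None of the remaining mural markers separated the tissues over all 6 libraries. The largest in muscle, Des, measured 16.1 to 46.1 CPM there and 15.5 to 21.7 CPM in lymph node. Its call as higher in muscle was made without muscle library 4 (1.37) and not with it (1.13). The part of mural cells in the Cspg4 value was not tested. Enpep (aminopeptidase A) measured 39.0, 51.5 and 26.9 CPM in muscle and 216, 225 and 166 CPM in lymph node (-2.31 ± 0.26, adjusted p = 0.00131). Both were called in all 19 settings, at 3.03 and -2.18 without muscle library 4, and neither overlapped between tissues. Pdgfra, the receptor most used to define these cells, measured 1193, 1331 and 651 CPM in muscle and 1392, 1338 and 1494 CPM in lymph node (-0.41, adjusted p = 0.536). Cd55, a complement regulator, measured 395 to 543 CPM in muscle and 231 to 323 CPM in lymph node, without overlap, and rose when muscle library 4 was left out (0.81, adjusted p = 0.003) but not with it (0.73, adjusted p = 0.0912). Bst2 (tetherin), an interferon-induced antigen, measured 45.4, 32.3 and 53.8 CPM against 92.5, 79.5 and 82.4 CPM (-0.996, adjusted p = 0.0505, and -1.11, adjusted p = 0.00137, without muscle library 4).

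For each of the 10 genes the 3 genes with the most similar profile were sought among 6593 candidates, by the root mean square difference between log2 CPM profiles centred on each gene's mean over the 6 libraries. Cd9 was nearest to the guidance receptor gene Robo1 (difference 0.118 on the log2 scale), Morc4 (0.186) and the latent TGF-beta binding protein gene Ltbp4 (0.211), all 3 called higher in muscle. Vcam1 was nearest to the metalloreductase gene Steap4 (0.117), the cytokine signalling inhibitor Socs1 (0.161) and the sphingosine phosphate receptor S1pr3 (0.161). Icam1 was nearest to the MHC class I gene H2-K1 (0.153), Sned1 (0.154) and Xpnpep2 (0.156). All 6 were called lower in muscle. Nt5e had no close match after Amy1 (0.183), with Irs2 at 0.359 and Ism1 at 0.398. The 6 genes that were not called had nearer matches, such as Gpx8 for Ly6a (0.0339), Nsmf for Ly6c1 (0.0364), Rexo1 for Thy1 (0.0409), Fam129a for Cd34 (0.0428), Hsf2 for Eng (0.0441) and Desi2 for Pdpn (0.0561). Profiles were centred but not brought to a common spread, so genes that vary little between libraries tend to lie nearer to others. Distances are therefore not comparable between members. The profiles share their libraries and scaling, and these distances are descriptions over 6 libraries. Neighbours were picked on the same 6 libraries, so calls shared with a member follow from that choice and lend it no support.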

How the data were processed

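The deposited table holds raw counts per gene symbol, made by the authors with STAR 2.5.4 and featureCounts on mm10, per the submitters' processing notes. Per the labels' protocols, oligo(dT)-primed cDNA was amplified, cut with Nextera XT and read as paired ends of 25 bases, with no molecular identifiers. Copies made by amplification therefore cannot be told apart, and the exact Poisson intervals, which treat counts as independent, may be too narrow. Intervals of fold changes come from the quasi-likelihood fit and include the spread between libraries. Not given in the sources used here are the annotation, strand use and treatment of multiply aligned reads.

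Counts were filtered (filterByExpr, 10823 genes kept), TMM-scaled and tested with edgeR 4.0.16 in R 4.3.3 (quasi-likelihood F test on tissue, 6 libraries, Benjamini-Hochberg adjusted over all tested genes). SE is the size of the log2 fold change over the square root of F. edgeR's common coefficient of variation fell from 0.265 to 0.151 when muscle library 4 was left out. Of the symbols, 49365 (93.1%) were matched to GENCODE M21 (GRCm38). Alternatives included DESeq2 1.42.0 and limma-voom (limma 3.58.1). On simulated data of this comparison (10507 genes) 93% of 4-fold and 30% of 2-fold changes were recovered, with 7 false calls. The changed genes had a mean of at least 20 CPM. Each gene had the same dispersion in every simulated library, so none stood apart as muscle library 4 did. These shares may therefore differ from those of the real comparison.

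The members and gene lists were chosen with earlier results of these data known. Named genes are the 10 members, up to 4 called genes per related list, partners of members, and the 3 nearest profiles. Genes named for a call only without muscle library 4 were chosen after their values were seen.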

Additional observations from a re-analysis of the deposited data

How the results depend on the processing

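Of 19 alternative settings, 18 were planned and limma-voom with library weights was added after the data were seen. The direction and call of Cd9 and Icam1 held in all 19. Members called numbered 3 in the main test, 2 to 4 on leaving out 1 library, 5 with total count scaling without muscle library 4, where Nt5e and Thy1 were added, and 5 with the replicate block.

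The count of genes called (468) was 142 to 1391 on leaving out 1 library, 945 without a filter, 222, 1435 and 1266 with muscle libraries 2 and 3, 2 and 4, or 3 and 4 summed, 1430 with total count scaling without muscle library 4, and 1366 with library weights. With RLE scaling it was 468, with DESeq2 686 and with limma-voom 630. The cause was not tested.

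Column numbers were also fitted as a replicate block, which gave 1530 called genes and 5 members, with Thy1 (0.48, adjusted p = 0.0486) and Nt5e added. Only the numbers 2 and 3 occur in both tissues. The tissue difference in this fit therefore rests on those libraries, and muscle library 4 and lymph node library 1 do not add to it. Whether the numbers pair the samples is not known. Deviations of same-numbered libraries from their tissue means correlated at -0.03 and 0.02. Muscle library 4 stood apart and is part of the muscle mean, so these values cannot decide it.

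Small log2 fold changes changed sign. Cd34 was 0.0185 with total count scaling, 0.127 with the block, 0.0736 and 0.0612 with libraries 2 and 4, or 3 and 4 summed, 0.259 with total count scaling without muscle library 4, 0.0817 with library weights, and -0.218 to 0.137 on leaving out 1 library. Pdpn was, in the same order, 0.0385, 0.255, 0.0137, 0.0241, 0.191, 0.135 and -0.195 to 0.112, and 0.0025 with limma-voom. Ly6c1 was 0.0499 with total count scaling without muscle library 4. Eng was -0.0694 with the block and -0.0246 to 0.348 on leaving out 1 library. Total count scaling moved the median of all tested genes to 0.10, and to 0.13 without muscle library 4, where 757 genes were higher and 673 lower in muscle against 539 and 852 with TMM. With the longest transcript as the length 16 of 20 levels per length moved by more than the SD between libraries, and with total count scaling 1 did. At 8 to 15 counts per muscle library the level of Nt5e is imprecise. Muscle library 4 was the shallowest, and the part of its depth in the calls was not tested.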
